A study of Mus musculus with 13 samples.

Results

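The mitochondrial genome of the mouse carries its own small set of genes, and all 37 of them were taken here by their symbols, which start with "mt-", from a table of 31528 genes. They comprise 13 mRNAs, 2 rRNAs and 22 tRNAs, all on the chromosome named MT. The 13 mRNAs encode core subunits of 4 of the complexes of oxidative phosphorylation, which pass electrons along the inner membrane and make ATP from the resulting proton gradient. The rRNAs and tRNAs serve only the mitochondrial ribosome, and all the proteins that transcribe, cut and translate these RNAs are encoded in the nucleus. Both strands are transcribed as long precursors that are cut at the tRNAs between the other genes. In the preimplantation embryo mitochondria are inherited from the oocyte, and the blastocyst depends on them for much of its ATP.

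The libraries came from whole blastocysts of the B6D2F1 background, a mix of C57BL/6 and DBA2J, during embryonic diapause, a reversible arrest before implantation, and from day 4.5 for comparison. The targeted OVX group (n = 2) was of embryonic day 5.5, was treated by ovariectomy of the mother and is labelled knockout for Nprl2 and Tsc2, a pair of genes that restrain the growth kinase complex mTORC1, by guide RNAs against both. The starvation group (n = 2), also of day 5.5, was wild type and is labelled by that treatment alone. Wild-type blastocysts of day 5.5 in the reduced KSOM group (n = 3) were cultured in KSOM, a defined embryo medium, with lowered arginine, leucine, isoleucine, lysine, glucose and lactate. Those in the depleted KSOM group (n = 2) were wild type, of day 5.5, and cultured in KSOM that lacked its protein and carbohydrate components. The OVX group (n = 2) was wild type, of day 5.5 and from ovariectomised mothers. The E4.5 group (n = 2) was wild type, of day 4.5, and carries the treatment label normal diet, so age and treatment cannot be told apart in any comparison with E4.5. No group was cultured in complete KSOM, so culture and lack of nutrients cannot be told apart either. The labels do not say how the guides were delivered or whether the knockout was complete in every cell. Nprl2 stood at 13.9 and 28.6 scaled CPM (counts relative to a fixed library total, explained below) in targeted OVX, against 38.04 and 36.5 in OVX, and Tsc2 at 14.7 and 8.26 against 23.3 and 14.1. Neither level shows whether the genes were cut.

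Each library held 40678386 to 72125687 counts. All 12 blastocyst markers had counts in all 13 libraries, but their summed levels differed. They were 3297 and 4942 CPM of the library total in targeted OVX, 13030 and 6556 in starvation and 20080, 18490 and 10200 in reduced KSOM. Sums were 7781 and 8809 CPM in depleted KSOM, 4685 and 12000 in OVX and 6791 and 9952 in E4.5. Of 15 skeletal muscle genes, all had counts in OVX replicate 1 and in the 3 reduced KSOM libraries, with summed levels of 1316 CPM of the library total in that OVX library and 984 to 1331 CPM in reduced KSOM, whereas 4 to 12 had counts elsewhere and summed to 187 to 503 CPM. Of 12 neutrophil genes, all had counts in the same 4 libraries, with 673 CPM in OVX replicate 1 and 1352 to 1891 CPM in reduced KSOM, against 32.5 to 193 CPM elsewhere. The muscle genes Acta1 and Myh1 were at 0 in all targeted OVX, starvation, depleted KSOM and E4.5 libraries. Erythroid genes (7) summed to 2.85 to 8.94 CPM in targeted OVX, 0.109 to 1.19 in starvation, 33.8 to 354 in reduced KSOM, 379 and 7.12 in depleted KSOM, 8.03 to 83.8 in OVX and 5.86 to 17.3 in E4.5. The depleted KSOM libraries, so far apart in these, held like shares of mitochondrial mRNA, at 10.8 and 11.2% of counts. Uterine epithelial genes (8) summed to 54.7 to 79.1 CPM in reduced KSOM, 72.7 in starvation replicate 2, 3.44 to 48.8 in the other libraries of day 5.5 and 2.52 to 6.53 in E4.5, and fibroblast genes (6) to 25.6 to 32.2 in reduced KSOM, 36.9 in starvation replicate 2 and at most 4.23 elsewhere. The part these transcripts have in the mitochondrial values was not tested.

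The sequences below show where the counts of one gene cannot be kept apart from those of another, which bears on most of the values that follow. A stretch of the mitochondrial genome has been copied into the nuclear genome on chromosome 1 (GRCm38, 24611535 to 24616197, minus strand) and is annotated as 7 pseudogenes. In the GENCODE M21 transcripts, Gm10925 was identical to mt-Atp6 over 678 bases, Gm28661 to mt-Co2 over 681, Gm28437 to mt-Co3 over 783, Gm10222 to mt-Nd4l over 294 and Gm28439 to mt-Nd4 over 876. Gm28438 matched mt-Nd3 over 345 bases with 1 mismatch, T3C, and Gm29216 matched the last 483 bases of mt-Co1 with 1 mismatch, A1066T, with positions counted from 1 at the 5′ end of the mitochondrial gene. Capitals mark these mismatches, the only bases that can tell a read on the matched stretches of both pairs apart.
mt-Co1: ggaAttgttttatccaactcatcccttga
Gm29216: ggaTttgttttatccaactcatcccttga
mt-Nd3: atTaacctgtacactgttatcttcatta
Gm28438: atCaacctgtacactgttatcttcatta

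Neighbouring mitochondrial genes overlap as well. mt-Atp8 (MT 7766 to 7969) shares 43 bases with mt-Atp6 (MT 7927 to 8607), and mt-Nd4l (MT 9877 to 10173) shares 7 bases with mt-Nd4 (MT 10167 to 11544), in each case on the same strand and on a single mRNA. mt-Nd5 (MT 11742 to 13565, plus strand) shares 14 bases with mt-Nd6 (MT 13552 to 14070, minus strand), and the labels do not state a strand-specific library, so reads of this pair cannot be assigned by strand. Since both strands are transcribed as long precursors, this limit is not confined to the shared bases. Counts of mt-Nd6, mt-Te and the other minus-strand tRNAs may include RNA of the plus strand, and how much was not tested. The ends of the first gene of each pair are shown from the same transcripts, with the shared bases in capitals.
mt-Atp8 end: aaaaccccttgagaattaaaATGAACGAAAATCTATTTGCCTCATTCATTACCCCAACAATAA
mt-Nd4l end: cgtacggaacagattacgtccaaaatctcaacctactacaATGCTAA
mt-Nd5 end: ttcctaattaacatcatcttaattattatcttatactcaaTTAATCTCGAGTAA

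Much of each pair's count stood on the nuclear copy. For mt-Atp6, mt-Co2, mt-Co3 and mt-Nd4l, the copy held a median of 47.2% to 48.7% of the pair's counts over the 13 libraries, and for mt-Nd3 a median of 38.9%. The shares were lower for mt-Co1, at a median of 23.4%, and for mt-Nd4, at 12.9%, whose copies match only part of the gene. The split was uneven across libraries. In E4.5 replicate 1 the copy of mt-Atp6 held 75.6% of the pair's counts, against 47.9% in E4.5 replicate 2, and in reduced KSOM replicate 2 the copies of mt-Atp6, mt-Co3 and mt-Nd4l held 28.1%, 30.5% and 30.5%, against 48.2% to 50.6% in the other two. How the authors assigned reads that fit both places is not given in the sources used here. Values below are as deposited unless the sum with the copy is named. mt-Nd1, mt-Nd2, mt-Nd5, mt-Nd6, mt-Cytb and the rRNAs have no copy of over 98% identity among the annotated transcripts. mt-Atp8 has no annotated copy of its own, but its last 43 bases, shared with mt-Atp6, lie within the match to Gm10925. It also lies between mt-Co2 and mt-Atp6, whose copies belong to the same stretch of chromosome 1. No copy was added for mt-Atp8. The tRNA genes mt-Ts1, mt-Td, mt-Tk, mt-Tg and mt-Tr also lie between genes whose copies belong to that stretch. The search kept only matches longer than any tRNA gene, so it could not show copies of tRNAs. How many reads of mt-Atp8 and of these tRNAs also fit chromosome 1 was not tested.

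**Figure D1:**
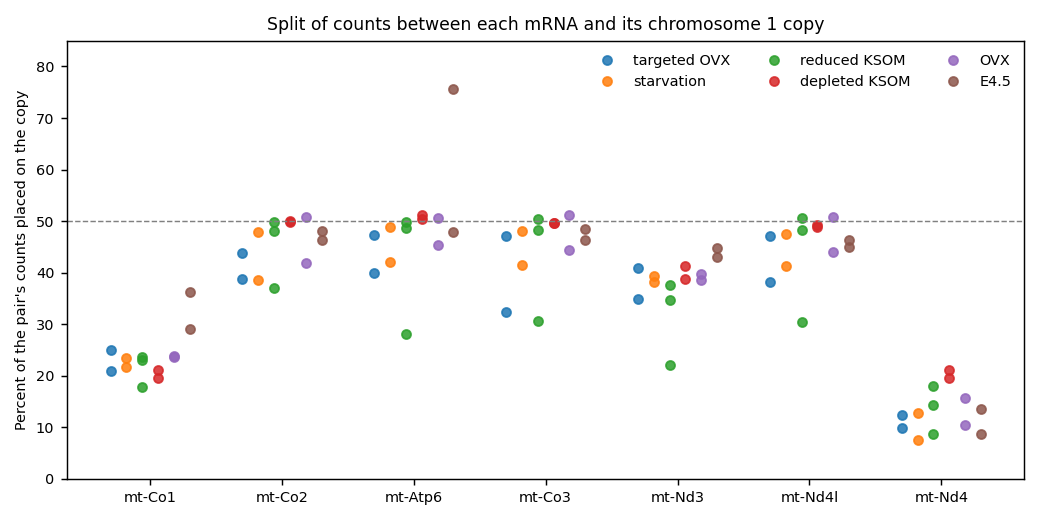
Percent of each pair's counts that the deposited table placed on the chromosome 1 copy (vertical axis), for the 7 mRNAs with such a copy, with 1 point per library coloured by group. Most points of mt-Co2, mt-Atp6, mt-Co3 and mt-Nd4l lie just under the dashed line at 50%, and mt-Atp6 in 1 E4.5 library lies at 75.6%.

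As a share of all counts, mitochondrial mRNA was lowest in both groups from ovariectomised mothers and highest in depleted KSOM. The 13 mRNAs made up 1.89 and 2.55% of counts in targeted OVX, 3.69 and 5.75% in starvation, 3.75, 5.49 and 5.70% in reduced KSOM, 10.8 and 11.2% in depleted KSOM, 2.07 and 2.35% in OVX and 4.202 and 4.75% in E4.5. Both OVX libraries and both targeted OVX libraries lay below both E4.5 libraries, both depleted KSOM libraries lay above all others, and starvation and reduced KSOM overlapped with E4.5. As a level, the 13 mRNAs summed to 24680 and 29210 scaled CPM in targeted OVX, 33500 and 47160 in starvation, 45040, 59590 and 69810 in reduced KSOM, 96090 and 103800 in depleted KSOM, 30840 and 20560 in OVX and 31280 and 33580 in E4.5. On this scale, which adjusts the library totals as explained below, all 3 reduced KSOM libraries lay above E4.5, and OVX replicate 1 lay just under the lower E4.5 library. With the copies added the mRNA shares were 2.45 and 3.58% in targeted OVX, 4.92 and 8.11% in starvation, 5.59, 6.89 and 8.27% in reduced KSOM, 15.1 and 15.7% in depleted KSOM, 3.14 and 3.24% in OVX and 5.96 and 6.46% in E4.5. The position of the OVX, targeted OVX and depleted KSOM groups against E4.5 was as before. No test was run on shares, since they sum over the members. In whole embryos, fewer cells of a type and less RNA per cell cannot be told apart.

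The rRNAs followed another order. They took 0.151 and 0.241% of counts in targeted OVX, 1.39 and 1.64% in starvation, 0.350, 0.550 and 0.537% in reduced KSOM, 1.39 and 1.92% in depleted KSOM, 0.208 and 0.217% in OVX and 0.839 and 1.92% in E4.5. Set against the mRNAs of the same library, there were 8.03 and 9.45 rRNA counts per 100 mRNA counts in targeted OVX, 37.5 and 28.5 in starvation, 9.32, 10.02 and 9.41 in reduced KSOM, 12.9 and 17.1 in depleted KSOM, 10.03 and 9.22 in OVX and 19.97 and 40.4 in E4.5. By this ratio starvation and E4.5 were the highest groups, and the targeted OVX, reduced KSOM, depleted KSOM and OVX libraries all lay below both of them. By rRNA share of all counts, depleted KSOM, at 1.39 and 1.92%, overlapped with both. The ratio is compared between groups only and does not give the relative amounts of the classes. The 22 tRNAs together took 0.00832 and 0.00754% of counts in targeted OVX, 0.0168 and 0.00989% in starvation, 0.0132, 0.0172 and 0.0186% in reduced KSOM, 0.0262 and 0.0299% in depleted KSOM, 0.00714 and 0.00518% in OVX and 0.0174 and 0.0247% in E4.5. The cDNA kit named in the labels primes on poly(A) tails, which most mitochondrial mRNAs carry and mature tRNAs lack, so levels are compared between groups within a class and not between classes.

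**Figure D2:**
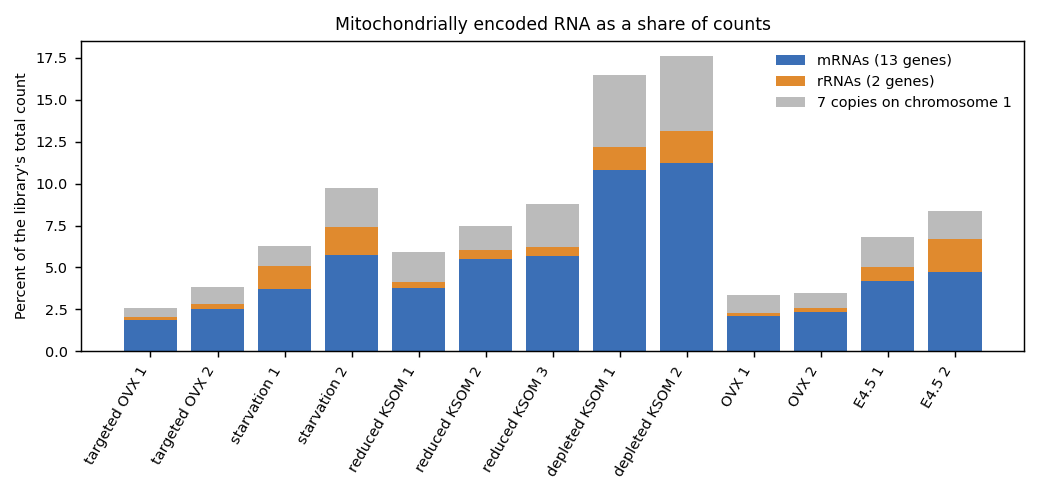
Percent of each library's total count (vertical axis) held by the 13 mitochondrial mRNAs, the 2 rRNAs and, stacked on top, the 7 nuclear copies on chromosome 1, with 1 bar per library. Bars of depleted KSOM are the tallest, with mRNA at 10.8 and 11.2%, and those of targeted OVX and OVX the shortest. The tRNAs, at under 0.03% of counts, are too small to draw.

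The levels of single genes that follow are scaled CPM, which are counts relative to the library total (CPM) after the totals were adjusted by trimmed means of M values (TMM), a scaling that aligns the bulk of genes. Rankings and overlaps given for single genes are on this scale unless a share of the library total is named. Complex I, the NADH dehydrogenase that takes in electrons at the start of the chain, has 7 mitochondrially encoded subunits. On this scale 6 of their mRNAs were highest on average in depleted KSOM. By mean share of the library total, mt-Nd2 (0.284%), mt-Nd3 (0.0247%) and mt-Nd6 (0.176%) were highest in E4.5. Their mean shares in depleted KSOM were 0.234, 0.0243 and 0.161%. mt-Nd4l stood at 45.8 and 57.3 in targeted OVX, 83.0 and 129 in starvation and 214, 304 and 219 in reduced KSOM. It stood at 632 and 612 in depleted KSOM, 62.6 and 45.9 in OVX and 193 and 274 in E4.5. Depleted KSOM was above, and targeted OVX, starvation and OVX below, the E4.5 libraries without overlap. mt-Nd4, its partner on the same mRNA, had 1021 and 1236 in targeted OVX, 1839 and 2757 in starvation and 1954, 2616 and 2905 in reduced KSOM. Its levels were 5784 and 6398 in depleted KSOM, 989.8 and 1219 in OVX and 2587 and 4628 in E4.5, with a wide gap between the E4.5 libraries. mt-Nd5 had 393 and 507 in targeted OVX, 399 and 1227 in starvation, 903, 1071 and 1154 in reduced KSOM, 3142 and 3696 in depleted KSOM, 484 and 491 in OVX and 1197 and 1470 in E4.5. Both depleted KSOM libraries exceeded all others for mt-Nd4 and mt-Nd5, which encode proton-pumping subunits of the membrane arm. By share, mt-Nd4 in depleted KSOM replicate 1 (0.6507%) was just under E4.5 replicate 2 (0.6542%). mt-Nd3, which encodes a small membrane subunit, had 76.9 and 82.7 in targeted OVX, 162 and 89.6 in starvation, 272, 317 and 256 in reduced KSOM, 216 and 224 in depleted KSOM, 63.3 and 26.2 in OVX and 148 and 209 in E4.5. It was the only complex I mRNA with its highest mean in reduced KSOM on this scale, though not by share.

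Like mt-Nd5, the other 3 complex I mRNAs passed no test against E4.5. mt-Nd1 had 2490 and 2885 scaled CPM in targeted OVX, 3375 and 2922 in starvation, 3452, 3689 and 5070 in reduced KSOM, 6644 and 6847 in depleted KSOM, 2529 and 1391 in OVX and 3998 and 3660 in E4.5. mt-Nd2 had 1036 and 1122 in targeted OVX, 1673 and 791 in starvation, 1399, 1473 and 1725 in reduced KSOM, 2027 and 2213 in depleted KSOM, 850 and 480.2 in OVX and 1463 and 2629 in E4.5. Both were lowest in OVX replicate 2. mt-Nd6, the one mRNA of the other strand, had 424 and 475 in targeted OVX, 518 and 884 in starvation, 700.1, 1009 and 1134 in reduced KSOM, 1267 and 1652 in depleted KSOM, 289 and 489 in OVX and 796 and 1738 in E4.5. Its highest library was E4.5 replicate 2, and the depleted KSOM values fell between those of E4.5. As stated above, its counts may include RNA of the plus strand.

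mt-Cytb encodes cytochrome b, the one mitochondrially encoded subunit of complex III, which passes electrons on to cytochrome c. Its levels were 3377 and 4741 scaled CPM in targeted OVX, 4807 and 6594 in starvation and 7010, 7899 and 11630 in reduced KSOM. They were 22500 and 25160 in depleted KSOM, 4281 and 2963 in OVX and 5128 and 4188 in E4.5. Depleted KSOM thus lay well above every other library, and targeted OVX, OVX and starvation overlapped with E4.5 on this scale. As a share of the library total, mt-Cytb held 0.258 and 0.413% in targeted OVX and 0.287 and 0.339% in OVX. Both groups then lay below E4.5, at 0.689 and 0.592%, while starvation, at 0.530 and 0.804%, still overlapped.

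Complex IV, cytochrome c oxidase, hands the electrons to oxygen, and mt-Co1, mt-Co2 and mt-Co3 encode its core. mt-Co1, which carries the oxygen-reducing centre, had 5047 and 6046 scaled CPM in targeted OVX, 7552 and 15200 in starvation and 9020, 11490 and 15030 in reduced KSOM. The gene had 20280 and 19990 in depleted KSOM, 6712 and 5571 in OVX and 6740 and 5785 in E4.5. Both depleted KSOM libraries were the highest, and starvation replicate 2 reached the level of the highest reduced KSOM library. By share of the library total, mt-Co1 held 0.386 and 0.527% in targeted OVX and 0.451 and 0.637% in OVX. All 4 values were below those of E4.5, at 0.905 and 0.818%. mt-Co2, which receives electrons from cytochrome c, had 1148 and 1351 in targeted OVX, 3344 and 4189 in starvation, 4239, 5890 and 5266 in reduced KSOM, 6450 and 6971 in depleted KSOM, 1646 and 1695 in OVX and 2770 and 2659 in E4.5. On this scale no group overlapped with E4.5, with targeted OVX and OVX below and the other 3 above. By share, starvation (0.369 and 0.511%) and reduced KSOM (0.353, 0.542 and 0.430%) overlapped with E4.5 (0.372 and 0.376%). mt-Co3 had 3703 and 2987 in targeted OVX, 3435 and 4852 in starvation, 5886, 9075 and 9057 in reduced KSOM, 11230 and 12160 in depleted KSOM, 4079 and 2692 in OVX and 4589 and 2901 in E4.5. Both cultured groups lay above E4.5, and the other 3 overlapped with it. By share, targeted OVX (0.283 and 0.260%) and OVX (0.274 and 0.308%) lay below E4.5 (0.616 and 0.410%). Reduced KSOM (0.4905, 0.8355 and 0.740%) overlapped with E4.5 by share.

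Complex V is the ATP synthase, whose proton channel is formed with the product of mt-Atp6 and whose membrane part also holds that of mt-Atp8. mt-Atp6 had 4999 and 6506 scaled CPM in targeted OVX, 5439 and 6462 in starvation and 8343, 12350 and 13450 in reduced KSOM. It had 13070 and 14370 in depleted KSOM, 7404 and 2999 in OVX and 1048 and 2999 in E4.5. Summed with its copy, the 2 E4.5 libraries came closer together, at 4297 and 5755, against 8319 and 12340 in targeted OVX, 9373 and 12620 in starvation, 16600, 17170 and 26240 in reduced KSOM, 26390 and 29420 in depleted KSOM and 14990 and 5486 in OVX. All sums of targeted OVX, starvation and the cultured groups exceeded both E4.5 sums, and OVX overlapped. mt-Atp8, which has no annotated copy of its own and overlaps mt-Atp6, had 919 and 1218 in targeted OVX, 872 and 1056 in starvation, 1651, 2411 and 2910 in reduced KSOM, 2845 and 3481 in depleted KSOM, 1446 and 495 in OVX and 625 and 443 in E4.5. The cultured groups were again the highest.

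The 2 rRNAs build the small (mt-Rnr1, MT 70 to 1024) and the large (mt-Rnr2, MT 1094 to 2675) subunit of the mitochondrial ribosome. mt-Rnr1 had 216 and 283 scaled CPM in targeted OVX, 1381 and 2667 in starvation, 401, 643 and 746 in reduced KSOM, 2452 and 3626 in depleted KSOM, 362 and 259 in OVX and 1078 and 2926 in E4.5. mt-Rnr2 had 1767 and 2476 in targeted OVX, 11190 and 10770 in starvation, 3798, 5328 and 5824 in reduced KSOM, 9921 and 14120 in depleted KSOM, 2732 and 1637 in OVX and 5170 and 10650 in E4.5. Both were far apart in the E4.5 replicates, and lowest in targeted OVX and OVX.

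**Figure D3:**
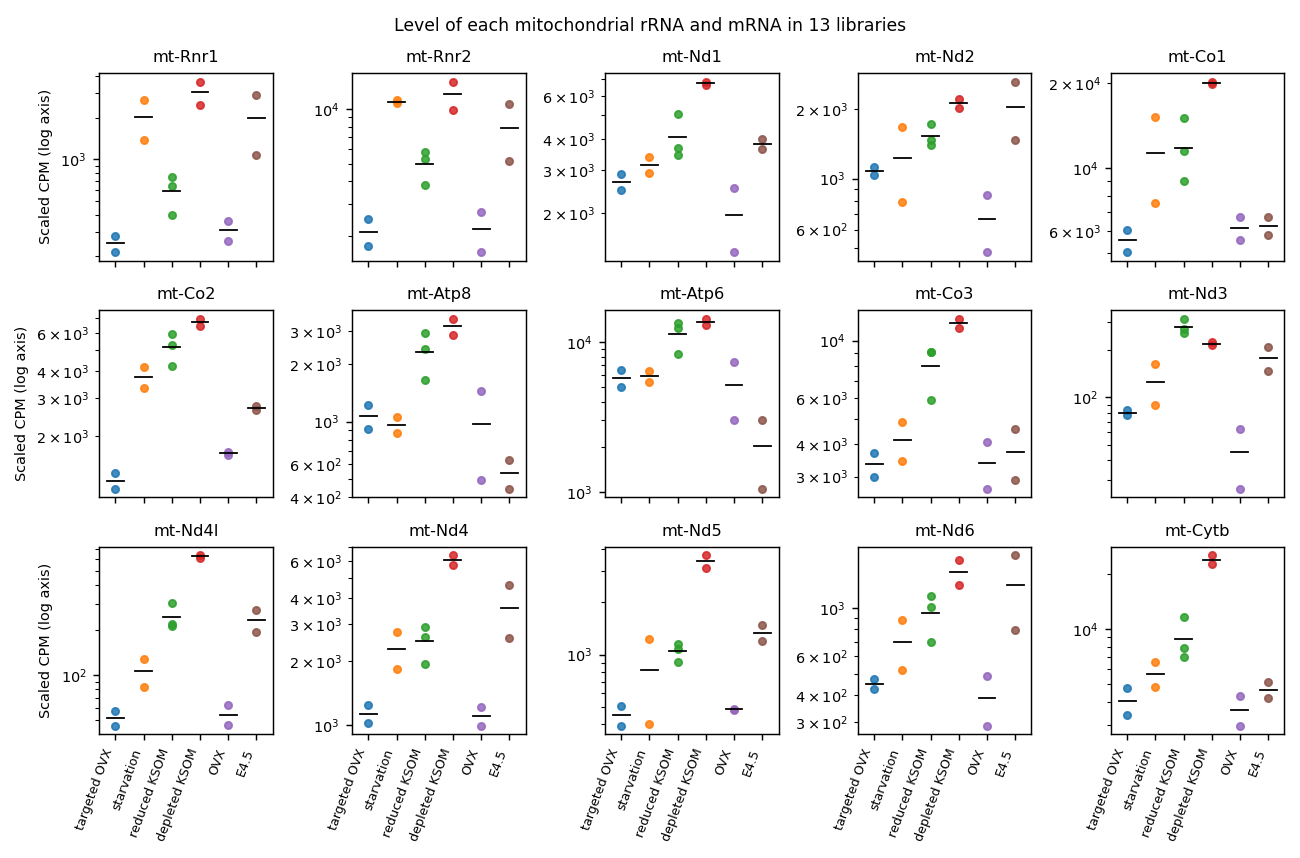
Scaled CPM (vertical axis, log scale, with its own range in each panel) of the 2 rRNAs and 13 mRNAs in gene order along the chromosome, with 1 point per library and a bar at the mean of each group. Depleted KSOM has the highest mean for all of these genes except mt-Nd3. mt-Nd4l, mt-Nd4 and both rRNAs are lowest in targeted OVX and OVX.

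Against E4.5, depleted KSOM had more of the cytochrome b, cytochrome oxidase and ATP synthase mRNAs, and of mt-Nd4l of complex I. Of the 13 mRNAs 7 were called higher and 0 lower, with 6 not passing, against 5.51% of all 21808 genes tested called in either direction (3.29% higher). mt-Cytb was 5.12-fold higher (log2 fold change 2.35 ± 0.41, adjusted p = 0.0078; edgeR quasi-likelihood test over all genes, here and below). mt-Atp6 was 6.78-fold higher (2.76 ± 0.56, adjusted p = 0.015) and mt-Atp8 5.92-fold (2.57 ± 0.49, adjusted p = 0.011). mt-Co1 (1.69 ± 0.42, adjusted p = 0.037), mt-Co3 (1.64 ± 0.41, adjusted p = 0.035), mt-Nd4l (1.41 ± 0.34, adjusted p = 0.032) and mt-Co2 (1.31 ± 0.32, adjusted p = 0.035) rose by less. The estimates were above 0 for all 13, with a median of 1.36 on the log2 scale against −0.09 over all genes, and 11 of the 13 had groups that did not overlap, as did 55.0% of all genes. Neither rRNA passed (0.60 for both), nor did any of the 21 tRNAs tested. The count was 3 without either depleted KSOM library and 2 without either E4.5 library, and mt-Co1 summed with its copy was not called (1.45, adjusted p = 0.068; 0.00028 to 0.17 over all alternatives). When E4.5 replicate 1 was left out mt-Atp6 missed the threshold (2.20, adjusted p = 0.082; 1.1e-08 to 0.082 over all), and when E4.5 replicate 2 was left out mt-Atp8 did (2.34, adjusted p = 0.057; 8.2e-08 to 0.057 over all), whereas mt-Cytb was called under all 17 alternatives, with adjusted p from 2.5e-08 to 0.048.

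In reduced KSOM against E4.5, the ATP synthase mRNAs were the ones called. Of the 13 mRNAs 2 were higher and 0 lower, with 11 not passing, against 1.13% of all genes called in either direction (0.770% higher and 0.362% lower). mt-Atp6 was 5.62-fold higher (2.49 ± 0.53, adjusted p = 0.045) and mt-Atp8 4.35-fold (2.12 ± 0.46, adjusted p = 0.047). The median of the mRNAs was 0.66 (all genes, 0.15), and −0.02 when libraries were scaled by their totals, which put the median of all genes at −0.50. Groups did not overlap for 8 of the 13, against 44.4% of all genes. mt-Rnr1 did not pass (−1.75 ± 0.45, adjusted p = 0.088), nor did mt-Rnr2 or any tRNA. The call of mt-Atp6 was lost with the copy added (1.99, adjusted p = 0.072; 1.2e-07 to 0.22 over all alternatives), and the count was 0 without any 1 of the 3 reduced KSOM libraries or without E4.5 replicate 1, and 1 without E4.5 replicate 2. All 3 reduced KSOM libraries held the muscle and neutrophil transcripts given above.

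OVX had less of 3 of the 7 complex I mRNAs and of the small rRNA than E4.5. Of the 13 mRNAs 3 were lower and 0 higher, with 10 not passing, against 2.04% of all genes called in either direction (0.481% lower). mt-Nd4l was 4.31-fold lower (−2.11 ± 0.35, adjusted p = 0.011), mt-Nd3 3.99-fold (−2.0 ± 0.42, adjusted p = 0.033) and mt-Nd4 3.27-fold (−1.71 ± 0.39, adjusted p = 0.043). mt-Rnr1 was 6.45-fold lower (−2.69 ± 0.53, adjusted p = 0.024), and mt-Rnr2 narrowly failed (−1.86 ± 0.45, adjusted p = 0.055). The estimates of mt-Atp6 and mt-Atp8 were above 0 (1.36 and 0.86), those of the other 11 mRNAs below, and 9 of the 13 had groups that did not overlap, against 46.2% of all genes. The call of mt-Rnr1 was lost without E4.5 replicate 2 (−1.80, adjusted p = 0.14) and without OVX replicate 2 (−2.47, 0.053), with 2.2e-08 to 0.18 over all alternatives. The mRNA count was 0 without E4.5 replicate 2 and 2 without OVX replicate 1, the OVX library with muscle and neutrophil transcripts. With libraries scaled by their totals it was 5, all lower, with a median of all genes of −0.53.

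Targeted OVX, set against the same E4.5 libraries as OVX, had less of mt-Nd4l, mt-Nd4 and both rRNAs. Of the 13 mRNAs 2 were lower and 0 higher, with 11 not passing, against 2.66% of all genes called in either direction (1.68% higher and 0.986% lower). mt-Nd4l was 4.54-fold lower (−2.18 ± 0.35, adjusted p = 0.0091) and mt-Nd4 3.20-fold (−1.68 ± 0.39, adjusted p = 0.041). Both rRNAs were lower, mt-Rnr1 8.03-fold (−3.01 ± 0.54, adjusted p = 0.014) and mt-Rnr2 3.73-fold (−1.90 ± 0.45, adjusted p = 0.046). The median of the mRNAs was −0.92 (all genes, −0.16), and 10 of 13 did not overlap, against 48.9% of all genes. The call of mt-Rnr2 was lost in 6 of 17 alternatives (adjusted p of 0.00022 to 0.33 and log2 fold changes of −2.65 to −1.29 over all), without E4.5 replicate 2 (−1.29) or either targeted OVX library among them. That of mt-Rnr1 was lost without E4.5 replicate 2 (−2.12, adjusted p = 0.072; 3.6e-10 to 0.1 over all). The mRNA count was 0 without E4.5 replicate 2 and 1 without either targeted OVX library. Scaled by library totals it was 8, with a median of all genes of −0.92.

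Starvation against E4.5 called none of the 13 mRNAs, neither rRNA and no tRNA, against 2.21% of all genes in either direction (1.68% higher). At an unadjusted p under 0.05 there were 2 mRNAs, and DESeq2 called 2 (1 higher and 1 lower) and limma on log2(FPKM + 1) called 1. The smallest adjusted p was that of mt-Nd4l (−1.14 ± 0.34, adjusted p = 0.1). The median of the mRNAs was −0.28 (all genes, 0), and 6 of 13 did not overlap, against 44.5% of all genes. Without starvation replicate 2 the count was 1. In DESeq2, mt-Nd4l passed (−1.17, adjusted p = 0.012; 0.012 to 0.52 over all alternatives).

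**Figure D4:**
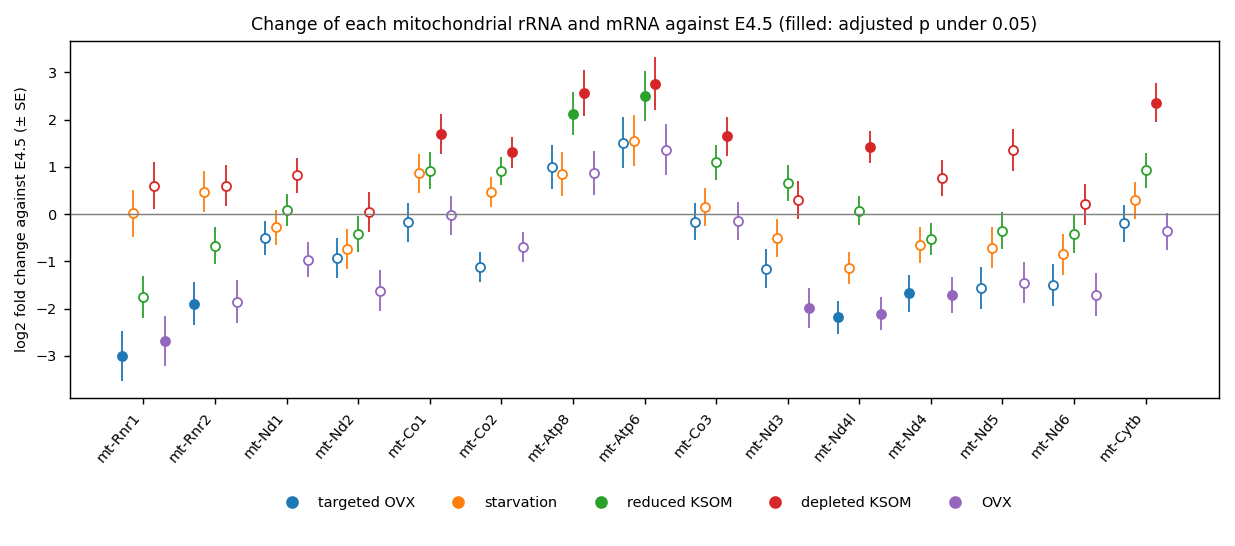
Log2 fold change against E4.5 with its standard error (vertical axis, edgeR) for the 2 rRNAs and 13 mRNAs in gene order, with colours for the 5 groups and filled points for an adjusted p under 0.05. All 5 comparisons share the 2 E4.5 libraries. Filled points above 0 belong to depleted and reduced KSOM, and filled points below 0 to targeted OVX and OVX.

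Depleted KSOM had more of 4 of the 7 complex I mRNAs, of mt-Cytb, of mt-Co2 and of both rRNAs than OVX. Between depleted KSOM and OVX, 6 of the 13 mRNAs were higher and 0 lower, with 7 not passing, and both rRNAs were higher, against 0.679% of all genes called in either direction (0.289% higher). mt-Nd4l was 11.5-fold higher (3.52 ± 0.37, adjusted p = 0.003), mt-Nd5 7.01-fold (2.81 ± 0.46, adjusted p = 0.021) and mt-Cytb 6.58-fold (2.72 ± 0.42, adjusted p = 0.017). mt-Nd4 (2.46 ± 0.40, adjusted p = 0.021), mt-Nd3 (2.30 ± 0.43, adjusted p = 0.035) and mt-Co2 (2.01 ± 0.33, adjusted p = 0.021) were also called, whereas the other 3 of complex I, mt-Co1 (1.71 ± 0.42, adjusted p = 0.082), mt-Co3 (1.79 ± 0.41, adjusted p = 0.066) and the ATP synthase mRNAs did not pass. mt-Rnr1 was 9.79-fold higher (3.29 ± 0.54, adjusted p = 0.021) and mt-Rnr2 5.503-fold (2.46 ± 0.46, adjusted p = 0.035). For all 13 mRNAs the 2 groups did not overlap, against 42.0% of all genes, and the median was 1.91 (all genes, −0.03). The count was 2 without depleted KSOM replicate 2 and 7 without OVX replicate 1. A fit of these 2 groups alone called none of them. Without depleted KSOM replicate 2 mt-Rnr1 (adjusted p = 0.053; 5e-12 to 0.21 over all alternatives) and mt-Rnr2 (0.13; 5.2e-07 to 0.26 over all) missed the threshold, and mt-Rnr2 also did without replicate 1 (0.06).

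Reduced KSOM set against depleted KSOM had lower levels of 3 of the 7 complex I mRNAs, of cytochrome b mRNA and of mt-Rnr1. Of the 13 mRNAs 4 were lower and 0 higher, with 9 not passing, against 5.79% of all genes called in either direction (2.99% higher and 2.80% lower). The called genes were mt-Nd5 (−1.71 ± 0.39, adjusted p = 0.028), mt-Cytb (−1.43 ± 0.35, adjusted p = 0.037), mt-Nd4l (−1.34 ± 0.30, adjusted p = 0.027) and mt-Nd4 (−1.29 ± 0.34, adjusted p = 0.045). mt-Nd1, mt-Nd2 and mt-Nd6 did not pass, and the estimate of mt-Nd3 was above 0 (0.36 ± 0.38, adjusted p = 0.6). mt-Rnr1 was 5.09-fold lower (−2.35 ± 0.45, adjusted p = 0.016), and mt-Rnr2 did not pass (−1.27 ± 0.39, adjusted p = 0.079). The median of the mRNAs was −0.62 against 0.29 for all genes, and 11 of 13 did not overlap, against 48.3% of all genes. The mRNA count was 0 without any 1 of the 5 libraries, and in those 5 fits mt-Rnr1 was called only without depleted KSOM replicate 1, with adjusted p of 0.059 to 0.075 without each of the others (6.7e-09 to 0.075 over all alternatives).

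Targeted OVX set against OVX called no mRNA, rRNA or tRNA, against 0.0367% of all genes. No mRNA or rRNA reached an unadjusted p under 0.05, and DESeq2 and limma called none either. The smallest adjusted p among the mRNAs was that of mt-Nd3 (0.84 ± 0.41, adjusted p = 0.48). The median was 0.14 (all genes, −0.09), and 3 of 13 did not overlap, against 32.0% of all genes. The standard errors of single genes do not show that the groups have equal levels.

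Beyond their amount, the mRNAs differed in proportion between groups. With the copies added, mt-Atp6 made up 25.98 and 30.1% of mitochondrial mRNA counts in targeted OVX, 21.0 and 19.0% in starvation, 24.8, 22.9 and 25.9% in reduced KSOM, 19.7 and 20.2% in depleted KSOM, 32.1 and 19.4% in OVX and 9.69 and 12.6% in E4.5. All 11 libraries of day 5.5 were above both of day 4.5. mt-Cytb made up 16.8 and 17.3% in depleted KSOM, against 9.16% to 11.6% in the other 11 libraries. mt-Nd4 was the reverse of mt-Atp6, with 6.74 and 11.1% in E4.5 and 2.51% to 5.47% at day 5.5. Summing each with its copy, there were 112 and 114 counts of mt-Atp6 per count of mt-Nd4l in targeted OVX, 66.3 and 51.4 in starvation, 38.3, 39.3 and 62.1 in reduced KSOM, 21.4 and 24.4 in depleted KSOM, 118 and 66.8 in OVX and 12.2 and 11.2 in E4.5. The E4.5 libraries had the lowest ratio and both groups from ovariectomised mothers reached the highest, although OVX replicate 2 lay near starvation. These ratios do not depend on the scaling of libraries. The pair was chosen after its values were seen, so no test is given.

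**Figure D5:**
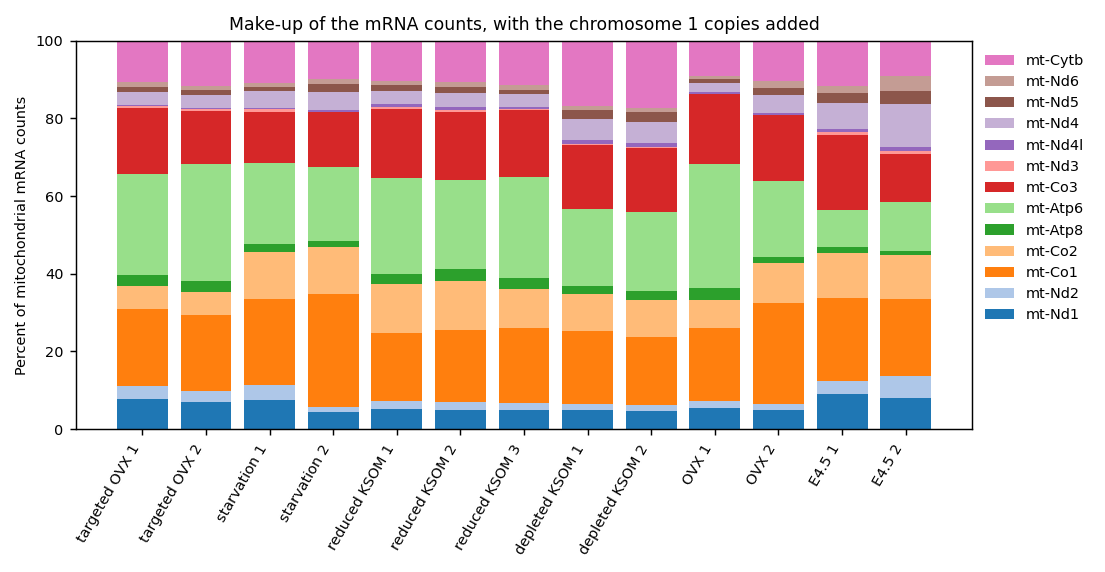
Percent of all mitochondrial mRNA counts (vertical axis, 0 to 100) held by each of the 13 mRNAs, each summed with its chromosome 1 copy where it has one, with 1 bar per library. The mt-Atp6 segment is narrowest in E4.5, at 9.69 and 12.6%, and the mt-Cytb segment widest in depleted KSOM, at 16.8 and 17.3%.

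Per length, in the authors' FPKM (fragments scaled by transcript length and depth), which do not add the copies, the order of the mRNAs also changed. mt-Atp6 was first in targeted OVX, starvation, reduced KSOM and OVX, with means of 6326, 9199, 13050 and 5613 FPKM. mt-Cytb was first in depleted KSOM, at 20980 ± 1091 FPKM, but its range overlapped with that of mt-Atp6, at 20290 ± 811 (SD, n = 2). In E4.5 mt-Co3 came first, at 5833 ± 1630 FPKM, and its libraries overlapped with those of mt-Cytb, mt-Co1, mt-Nd1 and mt-Co2, at means of 4875 to 4990. They also overlapped with those of mt-Atp6, at 1838 and 5571 FPKM. mt-Atp8 was second in targeted OVX, reduced KSOM and OVX, in place 3 in depleted KSOM and in place 8 of 13 in E4.5. mt-Nd3, mt-Nd4l and mt-Nd5 took the last places, 10 to 13, in each group, which puts mt-Nd5 among the least abundant although it is the longest gene. Counts per kilobase and library total with the copies added gave another order at the top. mt-Atp6 then came first also in depleted KSOM, at 45160 ± 2220 against 22960 ± 1178 for mt-Cytb in place 3 (SD, n = 2), and stood in place 3 in E4.5, while mt-Atp8 stood in place 3 in targeted OVX, 4 in reduced KSOM, 6 in depleted KSOM and 5 in OVX.

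The tRNAs were sparse, and mt-Ts2 was left out of the tests by the filter on low counts, with at most 0.0761 scaled CPM. mt-Te (tRNA for glutamate) was the highest tRNA in every library, with 27.9 and 35.0 scaled CPM in targeted OVX, 46.2 and 38.2 in starvation, 47.7, 74.4 and 65.5 in reduced KSOM, 63.1 and 85.2 in depleted KSOM, 17.0 and 23.2 in OVX and 34.6 and 94.5 in E4.5. It lies directly beside mt-Nd6 on the same strand, and the group means of both genes stood in the same order, highest in depleted KSOM and lowest in OVX. mt-Tq (glutamine), between mt-Ti and mt-Tm, had 6.82 and 1.89 in targeted OVX, 1.59 and 0.953 in starvation, 16.8, 16.8 and 28.5 in reduced KSOM, 33.0 and 41.2 in depleted KSOM, 10.9 and 1.06 in OVX and 14.1 and 10.5 in E4.5. It was highest in the cultured groups. mt-Tl1 (a leucine tRNA), which follows mt-Rnr2 without a gap, had 11.0 and 8.99 in targeted OVX, 16.6 and 4.92 in starvation, 10.8, 10.8 and 14.9 in reduced KSOM, 30.0 and 31.8 in depleted KSOM, 10.3 and 2.87 in OVX and 14.2 and 6.77 in E4.5. Depleted KSOM was about level within its pair and above every other library. These 3 tRNAs are printed because they stand for the different neighbourhoods, as gene sequences from the GENCODE M21 transcripts on GRCm38 (mt-Te at MT 14071 to 14139 and mt-Tq at MT 3772 to 3842, both on the minus strand, and mt-Tl1 at MT 2676 to 2750, on the plus strand).
mt-Te: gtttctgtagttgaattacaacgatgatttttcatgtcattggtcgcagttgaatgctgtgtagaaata
mt-Tq: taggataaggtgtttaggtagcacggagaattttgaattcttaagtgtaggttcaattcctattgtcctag
mt-Tl1: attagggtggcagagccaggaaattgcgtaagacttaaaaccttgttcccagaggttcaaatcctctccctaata

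No tRNA passed in any of the 8 comparisons. The smallest were those of mt-Te, in OVX against E4.5 (−1.68 ± 0.45, adjusted p = 0.075) and in depleted KSOM against OVX (1.88 ± 0.45, adjusted p = 0.075). The 4 neighbours mt-Ta, mt-Tn, mt-Tc and mt-Ty, on the minus strand between mt-Nd2 and mt-Co1, were each highest in starvation replicate 1, at 19.2, 23.98, 16.1 and 8.78 scaled CPM, against 6.04, 7.51, 4.19 and 1.76 in starvation replicate 2. mt-Ts1 (a serine tRNA) had 2.54 and 6.95 in E4.5 and at most 1.93 elsewhere. mt-Tl2 had 0 counts in both targeted OVX libraries and mt-Tv had 0 in targeted OVX replicate 2, which allows up to 3 counts per library. mt-Tm (methionine), beside mt-Tq, had 10.4 and 2.99 in targeted OVX, 2.17 and 1.69 in starvation, 22.4, 23.0 and 36.5 in reduced KSOM, 34.5 and 31.9 in depleted KSOM, 12.4 and 1.21 in OVX and 11.8 and 8.43 in E4.5. As for mt-Tq, the cultured groups were the highest and starvation was low. The other 10 tRNAs ranged from 0.0345 to 18.0 scaled CPM.

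Among the nuclear genes that serve these RNAs, a subunit of the enzyme that cuts them was called in every comparison with E4.5. Hsd17b10, a subunit of the RNase P that cuts mitochondrial precursors at tRNAs, averaged 162 ± 13.8 scaled CPM in depleted KSOM and 56.6 ± 3.52 in E4.5 (SD, n = 2 each) and was called higher in all 5 comparisons, which share the E4.5 libraries. Its log2 fold changes were 1.42 ± 0.28, adjusted p = 0.023 in targeted OVX, 1.57 ± 0.28, adjusted p = 0.016 in starvation, 1.34 ± 0.26, adjusted p = 0.034 in reduced KSOM, 1.52 ± 0.28, adjusted p = 0.01 in depleted KSOM and 2.04 ± 0.29, adjusted p = 0.0047 in OVX. In depleted KSOM, Trmt10c, another subunit of that enzyme (2.36 ± 0.55, adjusted p = 0.028), and Trnt1, which adds the 3′ end to tRNAs (2.07 ± 0.52, adjusted p = 0.038), were higher too. Trmt10c was lower in reduced than in depleted KSOM (−1.84 ± 0.47, adjusted p = 0.042). Of the 26 genes of RNA processing and stability, 1 was thus called in targeted OVX, starvation, reduced KSOM and OVX, and 3 in depleted KSOM, all higher than in E4.5. That is 1 or 3 of 26, where 1.68%, 1.68%, 0.770%, 1.56% and 3.29% of all genes were higher in targeted OVX, starvation, reduced KSOM, OVX and depleted KSOM. Their medians against E4.5 were 0.16, 0.16, −0.23, 0.32 and 0.09 in targeted OVX, starvation, reduced KSOM, depleted KSOM and OVX, where those of all genes were −0.16, 0, 0.15, −0.09 and 0.

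Polrmt, the mitochondrial RNA polymerase, had 8.73 and 5.98 scaled CPM in targeted OVX, 2.07 and 4.70 in starvation, 5.28, 6.29 and 6.25 in reduced KSOM, 3.99 and 5.45 in depleted KSOM, 14.2 and 7.70 in OVX and 5.42 and 12.4 in E4.5. Tfam, which packages and helps transcribe the mitochondrial genome, had 36.7 and 26.1 in targeted OVX, 17.6 and 50.5 in starvation, 34.0, 35.3 and 27.2 in reduced KSOM, 39.5 and 46.0 in depleted KSOM, 23.7 and 38.2 in OVX and 39.5 and 36.0 in E4.5. For both genes the spread within groups covered most differences between them. Lrpprc, which stabilises mitochondrial mRNAs together with Slirp, had 55.3 and 50.6 in targeted OVX, 63.7 and 66.1 in starvation, 53.7, 61.4 and 45.8 in reduced KSOM, 78.4 and 79.7 in depleted KSOM, 45.5 and 37.6 in OVX and 64.8 and 90.9 in E4.5. Slirp had 547 and 365 in targeted OVX, 110.1 and 90.9 in starvation, 229, 189.6 and 236 in reduced KSOM, 49.8 and 92.3 in depleted KSOM, 539 and 127 in OVX and 125 and 104 in E4.5. None of the 4 passed in any comparison.

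Of the 16 genes of mitochondrial transcription and replication, 2 were higher in depleted KSOM than in E4.5, Mterf1a (2.92 ± 0.66, adjusted p = 0.024) and Mterf3 (2.18 ± 0.50, adjusted p = 0.027), which belong to a family of mitochondrial transcription termination factors, against 3.29% of all genes higher there. Mgme1, an exonuclease that acts on mitochondrial DNA, was lower in starvation (−3.37 ± 0.48, adjusted p = 0.0081), where 0.532% of all genes were lower, and no other comparison called any of the 16. None of the 12 mitochondrial translation factors was called in any comparison. Gabpb1, a subunit of a transcription factor of nuclear genes for mitochondria, was the one of 7 biogenesis regulators called, higher in targeted OVX than in E4.5 (2.03 ± 0.39, adjusted p = 0.021).

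Of 15 genes for other mitochondrial proteins, Vdac3, a channel of the outer membrane, was higher than in E4.5 in targeted OVX (1.83 ± 0.31, adjusted p = 0.011), starvation (1.73 ± 0.31, adjusted p = 0.016), reduced KSOM (1.59 ± 0.29, adjusted p = 0.024), depleted KSOM (2.25 ± 0.31, adjusted p = 0.0027) and OVX (2.33 ± 0.31, adjusted p = 0.0046). In targeted OVX 3 of the 15 were called, against 2.66% of all genes, with a list median of 0.66 against −0.16 for all genes. In the other 4 comparisons 1 or 2 were called, against 1.13% to 5.51% of all genes, with medians of −0.32 to 0.12. Against E4.5, Hspd1, the mitochondrial chaperonin, was lower in OVX (−1.26 ± 0.28, adjusted p = 0.039), Cs, citrate synthase, was lower in reduced KSOM (−1.37 ± 0.27, adjusted p = 0.034), and in targeted OVX the import receptor Tomm20 was higher (1.67 ± 0.31, adjusted p = 0.017) and Vdac1 lower (−2.02 ± 0.38, adjusted p = 0.018).

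The nuclear genes for subunits of the same complexes, 69 in all, differed from the 13 mitochondrial mRNAs in their counts. Against E4.5, 12 were higher in targeted OVX (median 1.45), 0 in starvation (0.35), 2 in reduced KSOM (1.28), 0 in depleted KSOM (−0.07) and 3 in OVX (1.26), and none was lower. Over all genes 1.68% were higher in targeted OVX, 1.68% in starvation, 0.770% in reduced KSOM, 3.29% in depleted KSOM and 1.56% in OVX, with medians of −0.16, 0, 0.15, −0.09 and 0. The mitochondrial medians beside them were −0.92, −0.28, 0.66, 1.36 and −0.97. In targeted OVX the smallest adjusted p belonged to Ndufb5 (2.17 ± 0.37, adjusted p = 0.012), of complex I, and Atp5pb (1.56 ± 0.28, adjusted p = 0.014), of the ATP synthase. Reduced against depleted KSOM had 19 of the 69 higher and 1 lower (median 1.48), against 2.99% of all genes higher and 2.80% lower (median 0.29), where the mitochondrial mRNAs had 0 higher and 4 lower. The muscle genes summed to 984 to 1331 CPM in reduced KSOM and 199 to 218 CPM in depleted KSOM, and the neutrophil genes to 1352 to 1891 CPM in reduced KSOM and 125 to 128 CPM in depleted KSOM. Their part in this count was not tested. Cox8a (1.76 ± 0.35, adjusted p = 0.019) and Cox6c (2.71 ± 0.57, adjusted p = 0.023) of complex IV and Ndufa2 of complex I (2.31 ± 0.49, adjusted p = 0.022) were among the higher ones, and Ndufs1 of complex I (−1.32 ± 0.26, adjusted p = 0.019) was the lower one. Depleted KSOM against OVX called none of the 69 (median −1.56). The difference between the 2 sets of genes was not tested.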

How the data were processed

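RNA was made into cDNA with a kit for ultra-low input and fragmented before library construction, per the labels' protocols. The deposited counts are whole numbers per gene, and the deposited FPKM were computed by the authors. The submitters' processing notes name cutadapt 1.9, HISAT2 2.0.4, StringTie 1.3.4d and the GRCm38 build, while the counting tool and its treatment of multiply mapped reads are not given in the sources used here. Between 27.2% and 34.6% of nonzero counts up to 100 were multiples of 4, so the unit of a count may not be a single read. Counts were filtered with filterByExpr to 21808 genes and scaled by TMM. They were tested with edgeR 4.0.16 (quasi-likelihood, 1 mean per group, 13 libraries, 7 residual degrees of freedom, Benjamini-Hochberg adjusted p under 0.05 over all genes). The common biological coefficient of variation was 0.896. Each standard error was derived from a fold change and its F statistic. The test was checked on simulated counts.

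Alternatives used DESeq2 1.42.0, limma 3.58.1 on log2(FPKM + 1) or log2(FPKM + 0.1), other scalings and filters, counts divided by 4, the 2 groups alone, a replicate block and leaving out each library. Adding the chromosome 1 copies, found with blastn 2.17.0, was chosen after seeing the data. Levels in FPKM were used for the order by length. Members and lists were chosen with earlier results of these data known. Every member was accounted for. Values of a test are given for members called in a comparison, for the mRNA with the smallest adjusted p where none was called, and, outside that rule and after seeing values, for some that missed. Up to 4 called genes were named per list, and Polrmt, Tfam, Lrpprc and Slirp in every group. Whether replicates came from different mothers or dishes is not in the labels, so the p-values reflect spread among these libraries, which may be technical. Replicates of a group correlated at 0.861 to 0.922 (Pearson, log2 CPM across genes, which are not independent), and no pair was identical. In targeted OVX, reduced KSOM, depleted KSOM and E4.5, each library correlated best with one of its own group. In OVX and starvation this did not hold. OVX replicate 2 correlated at 0.892 with depleted KSOM replicate 2, against 0.869 with OVX replicate 1. The latter correlated best with reduced KSOM replicate 2, at 0.871. Starvation replicate 2 correlated at 0.885 with depleted KSOM replicate 1, against 0.861 with starvation replicate 1. The latter correlated best with E4.5 replicate 2, at 0.869. Depth limits the tRNAs, some at 0 to 3 counts, and cDNA amplification without molecular identifiers means that counts are not independent molecules. Versions were R 4.3.3, Python 3.11.15 and, for figures, matplotlib 3.10.9.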

Additional observations from a re-analysis of the deposited data

How the results depend on the processing

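Counts of called mRNAs depended on the processing, and no called value changed direction. With library totals as scaling, 8 were called in targeted OVX, 1 in reduced KSOM, 4 in depleted KSOM and 5 in OVX against E4.5, and 11 between depleted KSOM and OVX. Library totals with the copies added gave 8, 1, 4 and 5 for the same groups against E4.5 and 12 between depleted KSOM and OVX. Median-of-ratios scaling gave 0 in reduced KSOM against E4.5 and 2 between reduced and depleted KSOM. DESeq2 gave 6 in targeted OVX, 2 in starvation, 5 in reduced KSOM and 6 in OVX against E4.5, and 12 between depleted KSOM and OVX. Limma on log2(FPKM + 1) gave 8 in targeted OVX, 1 in starvation and 8 in OVX, and 11 between depleted KSOM and OVX. With a pseudocount of 0.1 it gave 8 in targeted OVX, 4 in depleted KSOM, 7 in OVX and 10 between depleted KSOM and OVX. Without the low-count filter 5 were called in targeted OVX, 1 in starvation and 7 in OVX, and 13 between depleted KSOM and OVX. With a mean CPM of at least 5 there were 4 in targeted OVX, 1 in starvation and 5 in OVX. Fits of only the groups compared gave 0 in targeted OVX, 0 in OVX, 0 between depleted KSOM and OVX and 7 between reduced and depleted KSOM. Summing with the copies gave 1 in reduced KSOM. The cause of these changes was not tested. Scaling on genes that are not mitochondrially encoded, or dividing counts by 4, kept every count within 1.5 times of the reported one.

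With 1 library left out, the counts ran from 0 to 2 in targeted OVX, 0 to 1 in starvation, 0 to 1 in reduced KSOM, 2 to 3 in depleted KSOM and 0 to 4 in OVX against E4.5. They ran from 2 to 8 between depleted KSOM and OVX, and were 0 in every such fit between reduced and depleted KSOM and between targeted OVX and OVX. Where 1 library was left in a group, it was assumed to vary like the other groups. Samples with the same number did not deviate together (correlations of −0.0595 to 0.0726 across genes), so the numbers do not pair them. With the replicate block, 0 were called in reduced KSOM against E4.5 and 1 between reduced and depleted KSOM, and the other counts stayed within 1.5 times. The mRNA share was 4.05%, 9.36%, 8.73%, 19.8%, 4.21% and 8.03% of summed FPKM in targeted OVX, starvation, reduced KSOM, depleted KSOM, OVX and E4.5, and 3.01%, 6.51%, 6.92%, 15.4%, 3.19% and 6.21% of counts with the copies added. Of 551 alternative values of named members, 423 kept their side of the threshold, 125 lost the call and 3 gained it.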

Other observations

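Ratios between neighbouring mitochondrial genes varied as well, and are given as values. The small rRNA mt-Rnr1 had 0.122 and 0.114 counts per count of the large rRNA mt-Rnr2 in targeted OVX, 0.123 and 0.248 in starvation, 0.106, 0.121 and 0.128 in reduced KSOM, 0.247 and 0.257 in depleted KSOM, 0.133 and 0.158 in OVX and 0.209 and 0.275 in E4.5. Both depleted KSOM and both E4.5 libraries lay above all libraries of targeted OVX, reduced KSOM and OVX, and the 2 starvation libraries fell on either side. Over the length of the chromosome, mt-Cytb had 1.36 and 1.64 counts per count of mt-Nd1 in targeted OVX, 1.42 and 2.26 in starvation, 2.03, 2.14 and 2.29 in reduced KSOM, 3.39 and 3.67 in depleted KSOM, 1.69 and 2.13 in OVX and 1.28 and 1.14 in E4.5. Every library of day 5.5 exceeded both of day 4.5, and neither gene has a near-identical copy. mt-Nd6 had 1.08 and 0.936 counts per count of mt-Nd5, its neighbour on the other strand, in targeted OVX, 1.297 and 0.721 in starvation, 0.775, 0.942 and 0.983 in reduced KSOM, 0.403 and 0.447 in depleted KSOM, 0.598 and 0.995 in OVX and 0.665 and 1.18 in E4.5, with depleted KSOM the lowest. Counts of mt-Nd6 may include RNA of the plus strand, as stated above. All of these pairs were chosen after their values were seen, and no test was run on them.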
